A study of Homo sapiens with 12 samples.

Results

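The MHC class II genes described here are the chain genes HLA-DRA, HLA-DRB1, HLA-DPA1, HLA-DPB1, HLA-DQA1 and HLA-DQB1, the peptide-loading genes HLA-DMA, HLA-DMB and CD74, and CIITA. They were chosen by gene symbol alone, and all 10 were found among the 20003 genes used. The mRNA was measured in NB4, an acute promyelocytic leukemia cell line with the PML-RARα fusion gene, and in Kasumi-1, a line of acute myeloid leukemia that carries AML1-ETO. Each cell line was incubated for 48 h with 1 µM OGP46, a small molecule known by its code name that the study examined as an inducer of differentiation, or with DMSO as control. There were 3 samples in each of the 4 groups, 12 in all. Neither line stands for more than one leukemia, and p-values measure the spread between these samples. The labels do not say whether samples 1 to 3 were separate cultures. The paper's legend calls its sequencing figures representative of 3 independent experiments, without tying this to the numbered samples.

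MHC class II molecules present peptides from endosomes to CD4 T cells, and B cells, dendritic cells and activated macrophages carry most of them. An α chain and a β chain pair in the endoplasmic reticulum with the invariant chain CD74, which is later cut down until a short piece fills the groove, and HLA-DM exchanges this piece for a peptide. CIITA is the coactivator that the promoters of these genes share, and it acts through RFX, CREB and NF-Y bound to the DNA. In myeloid leukemia, promyelocytic cells are typically negative for HLA-DR.

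The values were FPKM, fragments scaled to exon length and to the mapped total, so levels of different genes are compared per length. Per sample, the FPKM added up to 248207 to 310262, and between 9339 and 9746 genes reached 1 FPKM. Read counts were not used, so the depth is unknown and precision rests on the 3 samples of a group. The 6 myeloid marker genes were above 0 in all samples of both lines, with MPO at 1510 to 5191 FPKM. Of the cell types that carry class II molecules, B cells have the marker MS4A1, which was listed at 0 in all 12 samples, and the 5 dendritic cell markers summed to at most 0.586 FPKM. CD79B, another B cell marker, was at 5.43 to 14.7 FPKM in all samples. In these bulk samples, fewer cells with class II mRNA and less of it per cell cannot be told apart.

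In the GENCODE release 29 annotation of GRCh38, the build that the submitters' processing notes name as hg38, 8 of the members lie in the class II region of chromosome 6. HLA-DRA is at chr6:32439842-32445046, HLA-DRB1 at chr6:32578769-32589848, HLA-DQA1 at chr6:32628179-32647062 and HLA-DQB1 at chr6:32659467-32668383. HLA-DMB follows at chr6:32934629-32941070 and HLA-DMA at chr6:32948613-32969094. HLA-DPA1 at chr6:33064569-33080775 and HLA-DPB1 at chr6:33075926-33087201 overlap on opposite strands. CD74 is at chr5:150401637-150412929 and CIITA at chr16:10866222-10943021. HLA-DRB1 and the DQ genes have close paralogs and differ between people, so reads may have been lost or shared at these genes, which was not tested.

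The promoters of these genes are known for a shared box pattern, and the sequences below show it in 5 members that lie on 2 chromosomes. Promoters from 250 bases before to 50 bases after the start were taken from RefSeq (GRCh38.p14), where 8 of the 10 members were found. The search was for CNAGNNAC on the gene strand followed, after 15 to 45 bases and before the start, by CCAAT or its reverse complement ATTGG, the letters to which NF-Y binds. Both motifs are in capitals, each stretch is written 5′ to 3′ on the strand of its gene, and the pattern was chosen after these promoters had been read.
CD74, chr5:150412954-150412998, minus strand: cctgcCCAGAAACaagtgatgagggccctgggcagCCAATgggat
HLA-DRB1, chr6:32589885-32589934, minus strand: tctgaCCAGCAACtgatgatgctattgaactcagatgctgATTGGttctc
HLA-DQA1, chr6:32637297-32637347, plus strand: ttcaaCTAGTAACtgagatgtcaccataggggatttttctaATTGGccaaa
HLA-DQB1, chr6:32666736-32666785, minus strand: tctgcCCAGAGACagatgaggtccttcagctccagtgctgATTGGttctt
HLA-DMA, chr6:32953167-32953217, minus strand: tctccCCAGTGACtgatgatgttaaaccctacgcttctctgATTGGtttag
Between the motifs lie 22 bases in CD74, 27 in HLA-DRB1 and HLA-DQB1, and 28 in HLA-DQA1 and HLA-DMA. Of all 35116 promoters in the table, 348 (0.991%) held this arrangement. CCAAT on either strand alone was in 7 of the 8 members and in 32.0% of all promoters, and CNAGNNAC alone was in 18.0% of them. A match describes the letters and not a binding site. Promoters with the same arrangement had very different mRNA levels, from CD74 at 34.1 FPKM in its highest sample to HLA-DQA1, whose highest value was 0.0268 FPKM.

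The untreated lines differed widely in class II mRNA. All 6 members that could be tested were higher in Kasumi-1 than in NB4, with HLA-DRA and CD74 far ahead, while HLA-DPB1, HLA-DQA1 and HLA-DQB1 were listed at 0 in every NB4 control. The 10 members together summed to 43.2 to 50.4 FPKM in the Kasumi-1 controls and to 1.37 to 3.03 FPKM in the NB4 controls. A gene was called when limma, fitted to log2(FPKM + 0.1) over all genes whose mean reached 0.1 FPKM, gave a Benjamini-Hochberg adjusted p under 0.05 and a log2 difference of 0.58 or more in either direction. By this rule 29.7% of the 12302 genes tested were higher in Kasumi-1 and 22.7% were lower. HLA-DRB1, HLA-DPA1 and CIITA had NB4 control means of 0.0676, 0.0183 and 0.0479 FPKM and reached the minimum mean through Kasumi-1 alone. Their direction was thus set by the minimum, as it was for any gene whose mean was under 0.1 FPKM in 1 of the lines. Markers of cell types went both ways across this gap. Of the 6 myeloid markers, 5 were also higher in the Kasumi-1 controls, with a summed level of 9625 to 11883 FPKM against 2598 to 3873 FPKM in the NB4 controls. Of the B cell markers, 1 of 3 tested was higher, PAX5, at 1.21, 1.24 and 1.02 FPKM against 0.0426, 0.0198 and 0.0283 FPKM in the NB4 controls. The summed B cell marker level overlapped between the lines. The 1 T cell marker tested, CD3D, was lower in Kasumi-1 (log2 difference −4.76), as was the 1 dendritic cell marker tested, CLEC10A (−1.50). The part of any of these markers in the result was not tested.

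**Figure D1:**
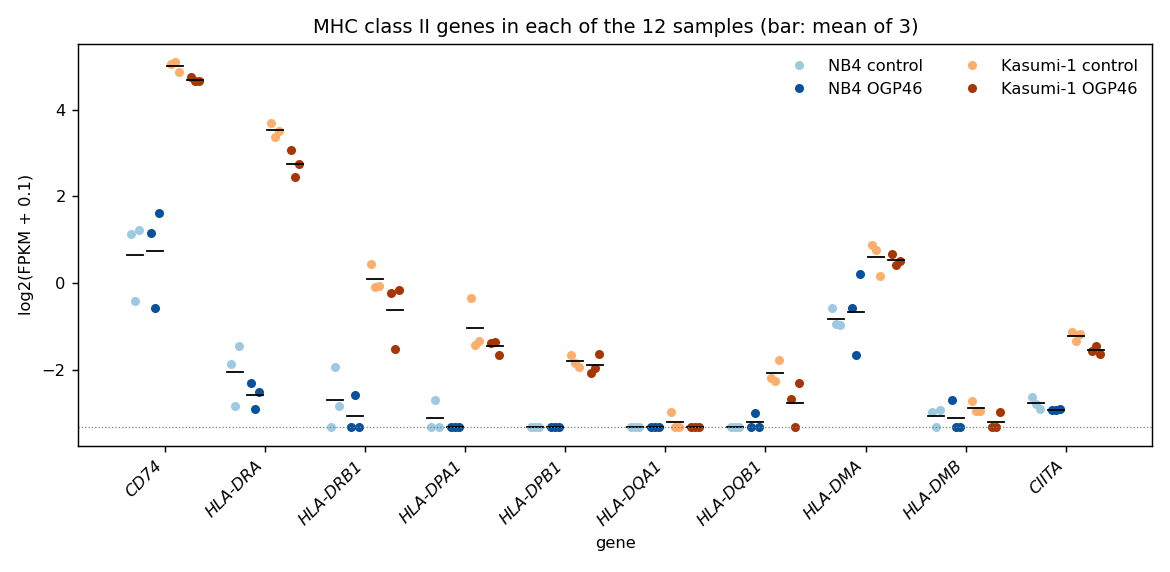
The level of each gene in each sample as log2(FPKM + 0.1), with a point per sample, a bar at the mean of the 3 samples of a group, and a dotted line where a value of 0 lies. CD74 and HLA-DRA stand highest in Kasumi-1, and in NB4 the DP and DQ genes sit at or near the dotted line.

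HLA-DRA encodes the α chain of HLA-DR. It was at 12.9, 10.3 and 11.3 FPKM in the Kasumi-1 controls and at 0.174, 0.0406 and 0.267 FPKM in the NB4 controls. The groups were far apart, with a log2 difference of 5.58 (SE 0.31, adjusted p = 4.67e-07 from limma), the 80th highest of the genes tested. HLA-DRB1, the β chain gene that pairs with it, was at 1.27, 0.835 and 0.862 FPKM in the Kasumi-1 controls and at 0, 0.163 and 0.0396 FPKM in the NB4 controls. Its log2 difference was 2.80 (SE 0.34, adjusted p = 7.2e-05 from limma), with a direction that was set by the minimum mean. In Kasumi-1 the FPKM of the α chain gene was thus 10.2 to 13.1 times that of HLA-DRB1 in the controls. Reads lost or shared at HLA-DRB1 could alter this ratio, which was not tested.

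The DP and DQ chain genes were low in both lines. HLA-DPA1 was at 0.691, 0.273 and 0.297 FPKM in the Kasumi-1 controls and at 0, 0.0550 and 0 FPKM in the NB4 controls. Its log2 difference was 2.08 (SE 0.33, adjusted p = 3.77e-04 from limma), with a direction that was set by the minimum mean. HLA-DPB1 was at 0.220, 0.179 and 0.164 FPKM in the Kasumi-1 controls and listed at 0 in all 6 NB4 samples. HLA-DQB1 was at 0.121, 0.111 and 0.191 FPKM in the Kasumi-1 controls. HLA-DQA1 had a value above 0 in a single sample, the first Kasumi-1 control. HLA-DPB1, HLA-DQA1 and HLA-DQB1 did not reach the minimum mean and were not tested between the lines.

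The invariant chain CD74 was the most abundant member in every group. It was at 33.0, 34.1 and 29.1 FPKM in the Kasumi-1 controls and at 2.09, 0.647 and 2.25 FPKM in the NB4 controls, a log2 difference of 4.36 (SE 0.37, adjusted p = 7.26e-06). CD74 made up 65.4 to 77.0% of the summed level of the members in the 6 Kasumi-1 samples, and HLA-DRA made up 16.3 to 26.0%. HLA-DMA, the α chain of the peptide exchanger, was the closest between the lines of the members tested, at 1.75, 1.59 and 1.03 FPKM in Kasumi-1 and 0.572, 0.422 and 0.412 FPKM in NB4 (log2 difference 1.43, SE 0.22, adjusted p = 2.83e-04). Its partner HLA-DMB stayed at or below 0.0547 FPKM in all 12 samples, and its control groups overlapped.

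CIITA was detected in all 12 samples at a low level. The Kasumi-1 controls had 0.356, 0.295 and 0.345 FPKM and the NB4 controls 0.0627, 0.0460 and 0.0350 FPKM. The log2 difference was 1.55 (SE 0.19, adjusted p = 7.47e-05 from limma), with a direction that was set by the minimum mean. With a pseudocount of 1 in place of 0.1, the log2 differences of CIITA and HLA-DPA1 were 0.35 and 0.47 and fell below the threshold. Over all 10 members, 8 had Kasumi-1 controls that lay entirely above the NB4 controls, the exceptions being HLA-DQA1 and HLA-DMB. Among all genes tested, 43.1% did so, a share over genes that reached the minimum mean. HLA-DPB1 and HLA-DQB1, which are among the 8, did not reach it. HLA-DRB1, HLA-DPA1 and CIITA, also among the 8, reached it through Kasumi-1 alone.

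In the Kasumi-1 controls the order of the levels was CD74, HLA-DRA, HLA-DMA, HLA-DRB1, HLA-DPA1, CIITA, HLA-DPB1, HLA-DQB1, HLA-DMB and HLA-DQA1. The ranges overlapped between HLA-DMA and HLA-DRB1, between HLA-DPA1 and CIITA, and between HLA-DPB1 and HLA-DQB1, so these neighbours did not differ beyond their spread. In the NB4 controls CD74 came first, followed by HLA-DMA and then HLA-DRA, with no overlap between them, and HLA-DRA overlapped with HLA-DRB1. HLA-DMA therefore stood above HLA-DRA in NB4 and below it in Kasumi-1.

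One NB4 library stood apart in genes of the other line. Of 4 markers of Kasumi-1 that could be used, the median level in the third NB4 control was 1.12% of the Kasumi-1 control mean, against 0.00764 to 0.264% in the other NB4 samples. CD34 was at 1.31 FPKM there and at 0.0149 to 0.154 FPKM in the others. HLA-DRA in the same library was 2.32% of the Kasumi-1 control mean, the highest of the NB4 samples, and CD74 was 7.02% of it. In the first NB4 control, where the marker median was 0.0309%, HLA-DRA was 1.51% and CD74 6.53% of the Kasumi-1 control mean. Without the third NB4 control, the log2 difference between the lines was 5.88 for HLA-DRA and 4.65 for CD74. HLA-DPB1, listed at 0 in the NB4 samples, then also reached the minimum mean, and 7 of 7 members tested were called higher in Kasumi-1. HLA-DPB1 entered through its Kasumi-1 values alone and could only come out higher there, so its call adds no support.

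Of the other class II genes, HLA-DRB5 was at 0.0827, 0 and 0.0623 FPKM in the Kasumi-1 controls and listed at 0 in the NB4 controls, below the minimum mean. With OGP46 it was at 0.0987, 0.0619 and 0.0865 FPKM in Kasumi-1, higher in 3 of 3 pairs, with groups that overlapped. HLA-DOB, the β chain of a molecule that inhibits HLA-DM, was the 1 gene of this list that could be tested, at 1.30, 1.36 and 0.949 FPKM in the NB4 controls and at 0.121, 0.0683 and 0 FPKM in the Kasumi-1 controls. Its log2 difference was −3.06 (SE 0.29, adjusted p = 1.56e-05 from limma), and it lies at chr6:32812763-32820466, between HLA-DQB1 and HLA-DMB. With a Kasumi-1 control mean of 0.0632 FPKM it reached the minimum mean through NB4 alone and could only come out lower in Kasumi-1. Of 6 non-class II genes of the region, 5 could be tested and 4 were lower in Kasumi-1, against 22.7% of all genes tested. The 4 were TAP1 (log2 difference −3.58), TAP2 (−1.61), PSMB8 (−3.26) and PSMB9 (−5.44), the peptide transporter and the immunoproteasome subunits of the class I pathway. PSMB9 was at 7.43, 7.71 and 8.09 FPKM in the NB4 controls and at 0, 0.0997 and 0.196 FPKM in the Kasumi-1 controls. Its Kasumi-1 control mean of 0.0985 FPKM was under the minimum, so its direction was also set by the minimum. PSMB9 overlaps TAP1 and PSMB8 in the annotation, and whether the counting used strand is not given in the sources used here. BRD2, a chromatin reader gene next to HLA-DMA, was not called (log2 difference −0.25).

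Of all genes tested, 29.7% were called higher in Kasumi-1 and 22.7% lower, and the counts of the lists below stand beside these shares. Of the 11 genes tested that are known to act upstream of CIITA, 0 were called higher in Kasumi-1 and 5 lower. Their median log2 difference was −0.48 against 0.10 over all genes. JAK1 was not called but lay higher in Kasumi-1 without overlap, at 12.4, 11.9 and 11.2 FPKM against 10.6, 9.59 and 10.3 FPKM in the NB4 controls. Of all genes tested, 43.1% lay higher in this way. The lower genes included the interferon-γ receptor genes IFNGR1 (−0.70) and IFNGR2 (−0.73), IRF1 (−0.62) and IRF8 (−4.70). IRF8, a transcription factor of monocytes and dendritic cells, was at 24.6, 20.8 and 21.8 FPKM in the NB4 controls and at 0.389, 0.649 and 1.65 FPKM in the Kasumi-1 controls. Of the 7 genes of the promoter complex, RFX5 (log2 difference 0.76) and NFYA (1.51) were higher in Kasumi-1 and RFXAP (−0.97) was lower, and the other 4 were not called. Among 6 endosomal genes tested, the thiol reductase gene IFI30 (2.49) and the protease gene CTSD (0.75) were higher in Kasumi-1 and CTSL (−2.70) was lower. Of the co-stimulatory genes, CD40 was higher (2.55) and CD86 lower (−1.93) in Kasumi-1. CD40 had an NB4 control mean of 0.0361 FPKM and reached the minimum mean through Kasumi-1 alone, so its direction was set by the minimum.

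**Figure D2:**
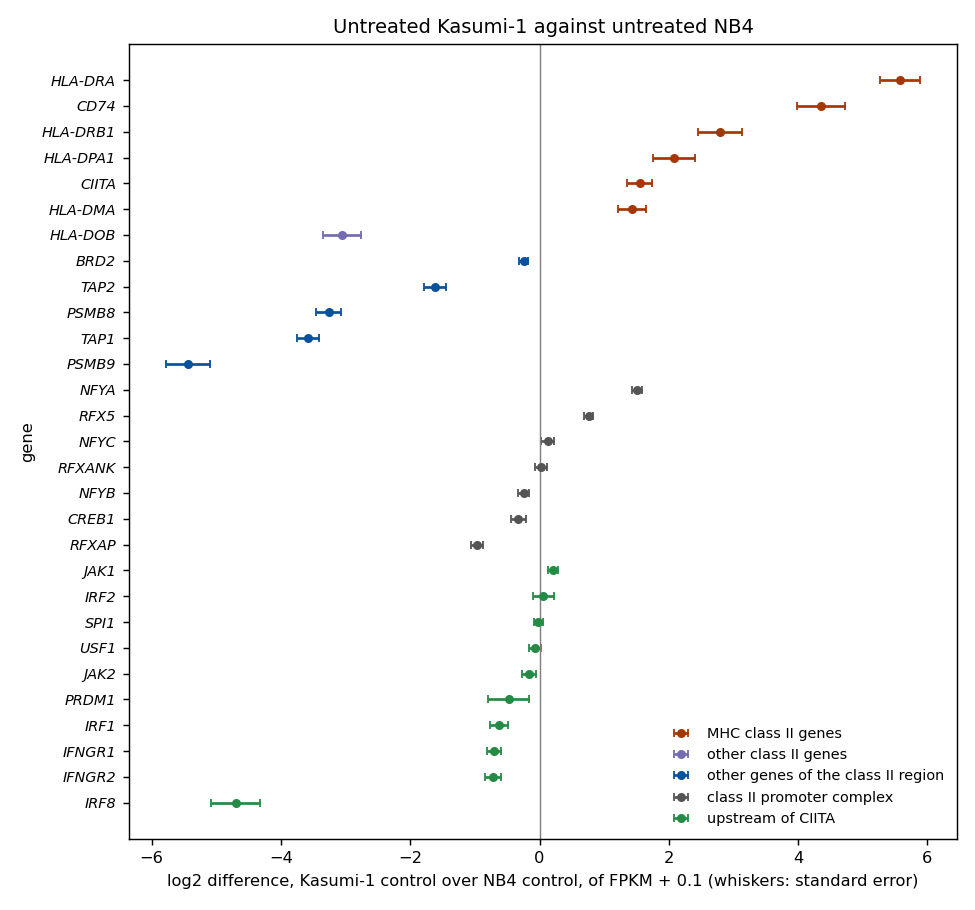
Log2 difference of each gene between untreated Kasumi-1 and untreated NB4, with positive values higher in Kasumi-1 and whiskers of 1 standard error, for tested genes of 5 lists. The 6 MHC class II genes lie between 1.43 and 5.58, whereas HLA-DOB, TAP1, TAP2, PSMB8 and PSMB9 lie between −5.44 and −1.61. HLA-DRB1, HLA-DPA1 and CIITA reached the minimum mean through Kasumi-1 alone, and HLA-DOB and PSMB9 through NB4 alone, which set their direction.

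With OGP46, limma called 0 of 7 members tested in Kasumi-1 without the pairing of the samples and 1 of 7, HLA-DRA, with it. HLA-DRA was at 12.9, 10.3 and 11.3 FPKM in the controls and at 8.27, 5.32 and 6.60 FPKM with OGP46. The groups did not overlap, and the OGP46 samples had 64.0, 51.6 and 58.7% of the level of their same-numbered controls. The log2 fold change was −0.78, with SE 0.14 and an adjusted p of 0.0747 without the pairing. With the replicate number as a block, the SE was 0.07 and the adjusted p 0.0029, so HLA-DRA fell by the rule in that fit. Background calls were rare in this comparison, at 0.0169% of the 11835 genes higher and 0.0169% lower without the block, and at 0.27% higher and 0.346% lower with it. Of all genes tested, HLA-DRA had the 46th lowest log2 fold change, and of the 6314 genes with at least 5 FPKM in the controls it had the 4th lowest.

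CD74 was at 33.0, 34.1 and 29.1 FPKM in the Kasumi-1 controls and at 27.0, 25.2 and 25.3 FPKM with OGP46. Every OGP46 sample lay below every control, at 81.9, 73.9 and 86.9% of the same-numbered control. The log2 fold change was −0.31 (SE 0.07, adjusted p = 0.109, and 0.0315 with the block), which is smaller than the 0.58 that a call needed. The ratio of CD74 to HLA-DRA was 2.55, 3.30 and 2.58 in the controls and 3.26, 4.73 and 3.82 with OGP46, higher in 3 of 3 pairs. The log2 difference of this ratio was 0.48, and the two-sided exact permutation test gave p = 0.2 (0.5 after adjustment over 5 ratios), where 0.1 is the smallest p that 3 against 3 samples allow.

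HLA-DRB1 was at 1.27, 0.835 and 0.862 FPKM in the Kasumi-1 controls and at 0.759, 0.251 and 0.796 FPKM with OGP46. The groups did not overlap, but the OGP46 samples spread from 30.1 to 92.4% of their controls. The log2 fold change was −0.73 (SE 0.33, adjusted p = 0.328, and 0.0930 with the block). It was −0.29 without the second OGP46 sample. The ratio of HLA-DRA to HLA-DRB1 was 10.2, 12.4 and 13.1 in the controls and 10.9, 21.2 and 8.29 with OGP46 (two-sided exact permutation p = 0.9, and 1.0 adjusted), and no direction could be read from it.

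CIITA was at 0.356, 0.295 and 0.345 FPKM in the Kasumi-1 controls and at 0.240, 0.266 and 0.221 FPKM with OGP46. The groups did not overlap, and the log2 fold change was −0.34 (SE 0.19, adjusted p = 0.427, and 0.349 with the block). On the log2(FPKM + 0.1) scale the change of a gene this low is understated. In FPKM the OGP46 samples had 67.3, 90.1 and 64.2% of the CIITA level of their controls.

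**Figure D3:**
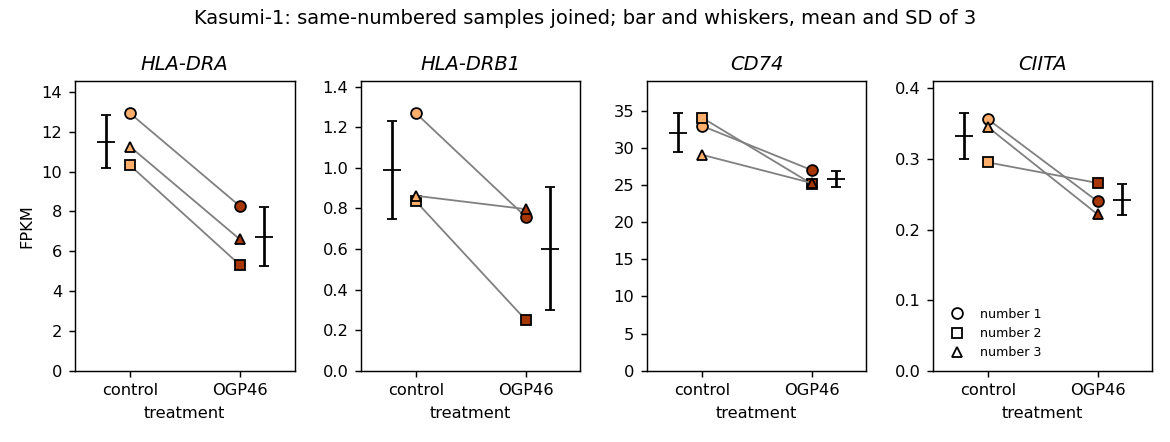
FPKM of HLA-DRA, HLA-DRB1, CD74 and CIITA in Kasumi-1, with same-numbered control and OGP46 samples joined and the mean and SD of the 3 samples beside them, each axis starting at 0. All lines slope down, and for HLA-DRA they run nearly parallel, from 10.3 to 12.9 FPKM down to 5.32 to 8.27 FPKM.

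The remaining members gave no call in Kasumi-1. HLA-DPA1 was at 0.691, 0.273 and 0.297 FPKM in the controls and at 0.287, 0.292 and 0.220 FPKM with OGP46, so its groups overlapped. Its log2 fold change was −0.42 (SE 0.29) and −0.08 without the first control. HLA-DPB1 (log2 fold change −0.08, SE 0.24) and HLA-DMA (−0.07, SE 0.18) overlapped between the groups. HLA-DMA was at 1.50, 1.23 and 1.33 FPKM with OGP46, within the range of its controls. HLA-DQB1 was at 0.0578, 0 and 0.102 FPKM with OGP46, below its 3 controls, and HLA-DMB was listed at 0 in 2 of the 3 OGP46 samples. Both were under the minimum mean and were not tested.

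Over the members, 7 of 7 that could be tested had a log2 fold change below 0 in Kasumi-1, with a median of −0.34, against 38.0% of all genes and a median of 0.05. Of the 10 members, 6 had OGP46 samples that lay entirely below the controls, namely HLA-DRA, HLA-DRB1, HLA-DQB1, HLA-DMB, CD74 and CIITA. Of the 7 tested, 4 did so, against 5.23% of all genes tested. Without the block limma called 0 members, and 2 had an unadjusted p under 0.05, HLA-DRA and CD74, as did 1852 genes in all. Myeloid markers moved in the same direction, with 5 of 6 below 0 and a median log2 fold change of −0.29, though 0 of 6 were called with or without the block. Their summed level was 9625 to 11883 FPKM in the controls and 7789 to 8968 FPKM with OGP46. MPO, ELANE and PRTN3 were lower in 3 of 3 pairs without overlap, ELANE with a mean of 1067 FPKM with OGP46 against 1505 FPKM in the controls. CD33 went the other way and was higher in 3 of 3 pairs without overlap. It was at 8.43 to 8.77 FPKM in the controls and at 10.9 to 11.2 FPKM with OGP46. Of all genes tested in Kasumi-1, 17.4% lay higher without overlap. The B cell markers had a summed level of 9.14 to 12.0 FPKM in the controls and 8.45 to 9.85 FPKM with OGP46. Of the 5 B cell markers 0 of the 3 tested were called and MS4A1 was listed at 0. The part of either marker list in the result was not tested.

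**Figure D4:**
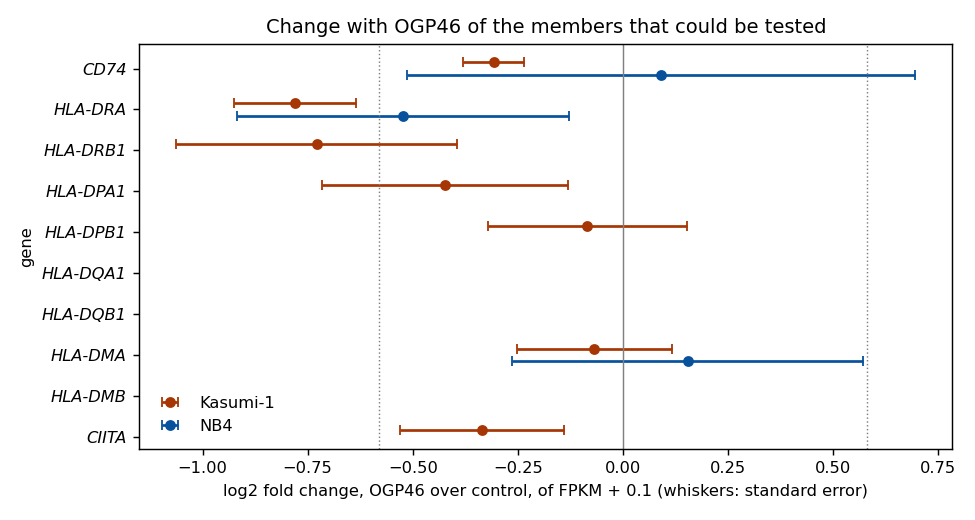
Log2 fold change with OGP46 over control on the log2(FPKM + 0.1) scale, with whiskers of 1 standard error and dotted lines at −0.58 and 0.58, for the 7 genes tested in Kasumi-1 and the 3 tested in NB4. All Kasumi-1 points lie below 0, with HLA-DRA at −0.78 and CD74 at −0.31, and the NB4 whiskers are wider.

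In NB4, CD74 at 0.576 to 2.96 FPKM and HLA-DMA at 0.219 to 1.05 FPKM were the highest members, and no member was called. The 10 members summed to 0.955 to 4.13 FPKM with OGP46, a range that covers the controls. Calls over all genes were 1.45% higher and 0.111% lower without the block, and 5.06% higher and 1.15% lower with it, of 11750 genes. Limma called 0 of the 3 members tested either way, and 0 had an unadjusted p under 0.05, as against 3422 genes in all.

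CD74 was at 2.09, 0.647 and 2.25 FPKM in the NB4 controls and at 2.14, 0.576 and 2.96 FPKM with OGP46. The second sample was the lowest in both groups, and the log2 fold change was 0.09 (SE 0.60, adjusted p = 0.928). HLA-DMA was at 0.572, 0.422 and 0.412 FPKM in the controls and at 0.571, 0.219 and 1.05 FPKM with OGP46 (log2 fold change 0.15, SE 0.42, adjusted p = 0.817). Its OGP46 samples covered the whole range of its controls. Both are below the median of 0.18 over all genes in NB4, and other scalings turn their sign.

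HLA-DRA was at 0.174, 0.0406 and 0.267 FPKM in the NB4 controls and at 0.103, 0.0342 and 0.0745 FPKM with OGP46. All 3 pairs were lower, the groups overlapped, and the log2 fold change was −0.52 (SE 0.39, adjusted p = 0.388, and 0.237 with the block). Without the third control, the library with the most Kasumi-1 marker signal, HLA-DRA no longer reached the minimum mean. CIITA was at 0.0627, 0.0460 and 0.0350 FPKM in the controls and at 0.0308 to 0.0331 FPKM with OGP46. Its groups did not overlap, which held for 1.91% of the genes tested in this direction, but CIITA was under the minimum mean. HLA-DPB1 and HLA-DQA1 were listed at 0 in all 6 NB4 samples, and HLA-DPA1 and HLA-DQB1 in 5 of them.

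The ratio of CD74 to HLA-DRA in NB4 was 12.0, 15.9 and 8.41 in the controls and 20.7, 16.8 and 39.8 with OGP46. The groups did not overlap, with a log2 difference of 1.04 and a two-sided exact permutation p of 0.1, the smallest that this design allows (0.5 after adjustment over 5 ratios). The ratio rests on HLA-DRA values of at most 0.267 FPKM.

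**Figure D5:**
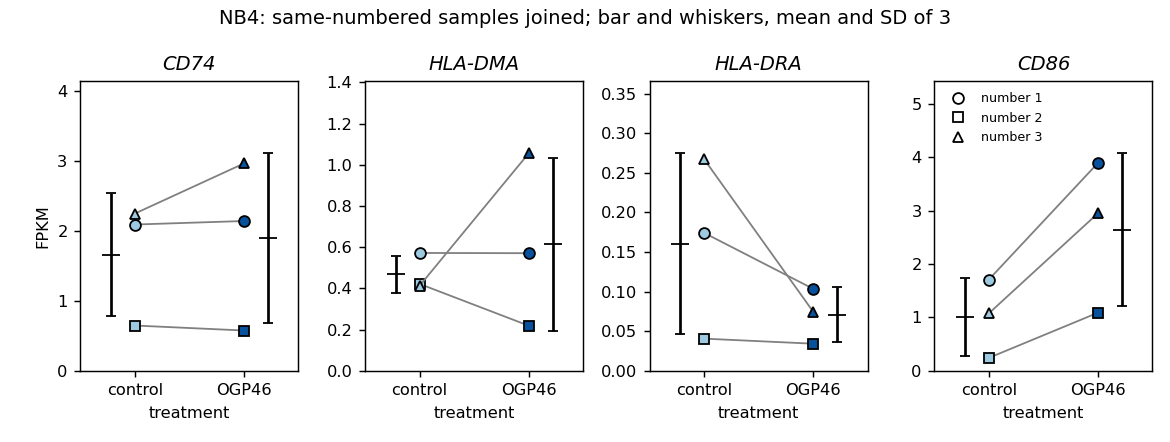
FPKM of CD74, HLA-DMA, HLA-DRA and the co-stimulatory gene CD86 in NB4, with same-numbered control and OGP46 samples joined and the mean and SD of the 3 samples beside them, each axis starting at 0. The second sample is low for CD74 (0.647 and 0.576 FPKM), HLA-DRA and CD86 in both groups, and CD86 is higher with OGP46 in all 3 pairs.

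Whether the cell lines responded differently was tested as the interaction of line and treatment over all 12 samples. Limma called 0 of the 6 members tested, without the block (0.0% of the 12309 genes) and with it (1.93%). At an unadjusted p under 0.05 there were 0 members and 1348 genes. The fold change of HLA-DRA in NB4 minus that in Kasumi-1 was 0.26 on the log2 scale (SE 0.42, adjusted p = 0.822), and that of CD74 was 0.40 (SE 0.69, adjusted p = 0.834, and 0.193 with the block). The standard errors leave room for differences of the size of the Kasumi-1 changes themselves. HLA-DRA was at most 0.267 FPKM in NB4, so its NB4 change is understated on the log2(FPKM + 0.1) scale. In FPKM the OGP46 samples had 59.4, 84.2 and 27.9% of the HLA-DRA level of their controls in NB4. In Kasumi-1 they had 64.0, 51.6 and 58.7%.

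Few genes around the class II pathway were called with OGP46. In the promoter complex 0 of 7 genes were called in either line, and RFX5 was at 18.3 to 20.3 FPKM in the Kasumi-1 controls and 18.9 to 20.0 FPKM with OGP46. RFXAP was at 3.34, 3.67 and 3.65 FPKM in the Kasumi-1 controls and at 2.93, 2.98 and 3.21 FPKM with OGP46, without overlap (log2 fold change −0.22, adjusted p = 0.278, and 0.143 with the block). In Kasumi-1 5.23% of all genes tested lay lower without overlap. Of the genes upstream of CIITA, 0 of 11 were called in NB4 and 0 of 10 in Kasumi-1 without the block. IFNGR1 rose in NB4 with the block, at 12.7, 9.58 and 11.4 FPKM in the controls and 21.4, 13.1 and 18.2 FPKM with OGP46 (log2 fold change 0.62, adjusted p = 0.0843, and 0.0011 with the block). With the block 5.06% of all genes tested in NB4 were called higher. SPI1, the myeloid factor PU.1, was at 28.8 to 32.6 FPKM in the Kasumi-1 controls and 28.4 to 31.5 FPKM with OGP46. In NB4 SPI1 was at 31.6, 29.9 and 31.6 FPKM in the controls and at 39.7, 34.4 and 38.6 FPKM with OGP46, without overlap (log2 fold change 0.27, adjusted p = 0.0890, and 0.0324 with the block), under the size needed for a call. Of all genes tested in NB4, 32.7% lay higher without overlap, and the median log2 fold change was 0.18.

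Genes of the endosome were higher where they changed. SPPL2A, the protease that removes the last membrane-bound piece of CD74, was at 3.06, 2.48 and 2.91 FPKM in the NB4 controls and at 5.15, 4.03 and 5.38 FPKM with OGP46. It rose by a log2 fold change of 0.76 (SE 0.14, adjusted p = 0.0399 from limma, and 6.39e-04 with the block), the 1 call among 6 endosomal genes tested in NB4. Of all genes tested in NB4, 1.45% were called higher without the block and 5.06% with it. The median log2 fold change over all these genes was 0.18, and 18.1% of them lay below 0. Whether the SPPL2A call holds under other scalings is not reported here. In Kasumi-1 SPPL2A was at 3.62, 3.77 and 3.97 FPKM in the controls and at 4.89, 4.69 and 4.92 FPKM with OGP46 (log2 fold change 0.34, adjusted p = 0.105, and 0.0408 with the block), under the size needed. CTSL, a cathepsin that cuts the invariant chain, was at 0.251, 0.423 and 0.121 FPKM in the Kasumi-1 controls and at 0.634, 0.634 and 0.499 FPKM with OGP46. CTSL rose with the block alone (log2 fold change 1.00, adjusted p = 0.162, and 0.0408 with the block), as did 0.27% of all genes tested in Kasumi-1.

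CD86, a co-stimulatory ligand for T cells, was at 1.71, 0.242 and 1.08 FPKM in the NB4 controls and at 3.90, 1.09 and 2.95 FPKM with OGP46. The second sample was the lowest in both groups, the groups overlapped, and all 3 pairs were higher. CD86 had a log2 fold change of 1.44 (SE 0.63, adjusted p = 0.174) and rose with the block (SE 0.15, adjusted p = 1.31e-04), as did 5.06% of all genes tested in NB4. In the same pairs CD74 was at 102, 89.0 and 132% of its controls. TAP1 was at 0.492, 0.432 and 0.711 FPKM in the Kasumi-1 controls and at 0.246, 0.232 and 0.385 FPKM with OGP46 (log2 fold change −0.73, adjusted p = 0.183, and 0.0525 with the block).

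The genes whose pattern was most like that of HLA-DRA were sought among genes that averaged 1 FPKM or more. Over the 12 samples, which fall into the 2 lines, the highest Pearson r of log2(FPKM + 0.1) were those of TRH (0.995), LYPD8 (0.994), TP53I3 (0.994), SYNGR1 (0.994) and ARHGEF3 (0.993), of 9942 genes. CD74 had r = 0.975 and was at place 431. These points share 2 lines, so r mainly reflects the gap between them. Over the 6 Kasumi-1 samples they were SORL1 (0.977), DVL2 (0.971), HBQ1 (0.971), BAD (0.957) and ZFR (0.957), of 9713 genes. There CD74 had r = 0.857, at place 61, and HLA-DMA had r = 0.321, at place 1496. With 6 samples in 2 treatment groups these r are a description only.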

How the data were processed

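Poly(A) mRNA libraries of 12 samples were made with a stranded kit. The authors deposited 1 FPKM value per gene symbol and sample. The submitters' processing notes name Trimmomatic, HISAT2, Cufflinks, HTSeq and hg38, without versions. Of the values, 632 lie above 0 and below 1e-04. Which tool assigned the fragments is not given in the sources used here, and depth was not recovered. The 27 symbols turned into dates were left out. MARCH1, MARCH8, HLA-DRB3, HLA-DRB4, HLA-DRB6 and HLA-DPB2 were not analysed here.

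FPKM were used as deposited. Comparisons were made on log2(FPKM + 0.1) with limma (version 3.58.1, R 4.3.3) and a mean-variance trend, for genes that averaged 0.1 FPKM or more in the samples fitted. P-values were adjusted over all genes tested. The difference in response between the lines was the interaction term of 1 model. Scripts were tested on simulated data.

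The labels number the samples 1 to 3 in each group. Deviations of same-numbered samples correlated at 0.66, 0.85 and 0.44 in NB4 and 0.42, 0.43 and 0.62 in Kasumi-1, over genes of at least 5 FPKM. Other-numbered samples correlated at −0.69 to 0.29 in NB4 and −0.44 to 0.081 in Kasumi-1. Over all genes tested the same-numbered values were all above 0.1. Other-numbered samples reached 0.22 there in NB4, above the 0.20 of the third NB4 pair, and 0.10 in Kasumi-1, where the second pair had 0.16. The numbers were taken to pair the samples, which is less sure for those pairs. Results are given without the pairing, which the paper's methods do not name, and with the replicate block where it changed a call.

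The genes named are all 10 members, the list genes called with or without the block, and at most 4 further genes per list with the highest mean FPKM. Other list genes, named by their difference between the lines, and CD33, named by its change with OGP46, were picked with their values known. The result of 1 list gene is not reported here. The members and lists were chosen with earlier results of these data known. The marker list for NB4 was not used, since HGF and FGF13 of it were higher in Kasumi-1. Labels and methods give 48 h of incubation, and a figure legend gives another time.

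Other settings were pseudocounts of 1 and 0.01, no minimum, a minimum of 1 FPKM, median centring, TPM scaling, no trend, quantile normalization, array weights, subtraction of the other line's signal and leaving out samples. The block with TPM scaling, with quantile normalization and without each pair was added after seeing the data.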

Additional observations from a re-analysis of the deposited data

Results flagged for a closer look

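TAP1, a peptide transporter gene of the class II region, differed between the lines in its change with OGP46 under the replicate block alone. Its log2 fold change in NB4 minus that in Kasumi-1 was 0.79 (limma interaction, adjusted p = 0.278, and 0.0241 under the replicate block). Under the block 1.81% of the genes tested were called in this direction, and without it 0.0%. In NB4 TAP1 was at 7.82, 6.88 and 7.83 FPKM in the controls and at 7.63, 7.29 and 8.57 FPKM with OGP46, and in Kasumi-1 all 3 pairs were lower. Levels in Kasumi-1 were at most 0.711 FPKM.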

How the results depend on the processing

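The count of members called in Kasumi-1 with OGP46 was 0 as reported. It was 1 (HLA-DRA) at a minimum of 1 FPKM (adjusted p = 0.0407 from limma), with array weights (0.0458), with the replicate block, and with the block under TPM scaling or quantile normalization. It was 2 (HLA-DRA and HLA-DRB1) with the block and median centring. With samples or pairs left out it ranged from 0 to 2, and leaving out a pair under the block kept HLA-DRA called, at a highest adjusted p of 0.0042. Between the untreated lines 2 of 2 members tested were called at a minimum of 1 FPKM, and 6 to 7 with a sample left out. The counts in NB4 and for the interaction were 0 under every setting run.

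Signs turned for members without a call. In NB4 the log2 fold change of CD74 was −0.027 with TPM scaling, −0.13 with median centring and −0.11 with quantile normalization, and that of HLA-DMA was −0.067 with median centring and −0.013 with quantile normalization. Median centring gave the same values with the block. These scalings moved the median of all genes in NB4 from 0.18 to between −0.04 and 0.06. With a pseudocount of 0.01 the interaction was −0.081 for HLA-DRA, −0.30 for HLA-DRB1, −0.38 for HLA-DPA1 and −0.0076 for CIITA. In NB4 these genes were at most 0.267 FPKM, where the size of a log2 change depends on the pseudocount. The turned signs were not tested further. With 1 sample left out, CD74 ranged from −0.44 to 0.74 and HLA-DMA from −0.29 to 0.64 in NB4, and HLA-DPB1 from −0.21 to 0.0095 and HLA-DMA from −0.29 to 0.073 in Kasumi-1. Under the block, without pair 1 HLA-DPB1 was 0.089 and HLA-DMA 0.0013, and without pair 2 HLA-DMA was 0.069. With 1 sample left out, the interaction ranged from −0.13 to 0.56 for HLA-DRA, −0.14 to 1.05 for CD74, −0.22 to 0.71 for HLA-DMA, −0.13 to 0.42 for HLA-DPA1 and −0.086 to 0.74 for HLA-DRB1. HLA-DRA in Kasumi-1 stayed between −0.94 and −0.62. The block changed no other call of a member. With 3 samples a group and unknown depth, members under 1 FPKM are the least certain.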
